A study of Mus musculus with 10 samples.

Results

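Genes whose symbol starts with Nduf were followed in the left ventricle (LV) of nAAC and sham mice, to ask how the nuclear transcripts of mitochondrial complex I stood in the pressure-overloaded young heart. All 53 such genes among the 55401 genes of the tables were taken by name. They are 37 complex I subunits (7 core and 30 accessory), 8 assembly factors of the Ndufaf series, 2 genes that carry the name but are not assigned to complex I (Ndufa4 and Ndufa4l2), and 6 processed copies. With the filter of a mean FPKM of at least 1 over the 10 libraries, 52 remained, and only the copy Ndufa11b, at a mean of 0.040 FPKM, was left out, so that every subunit and assembly factor was tested. FPKM, the unit used throughout, counts fragments per kilobase of transcript and scales them to library depth, so that levels of different genes are compared per length.

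The series holds 5 nAAC and 5 sham mice of the C57BL/6 strain and wild-type (WT) genotype, sampled at 4 weeks of age, with 1 library per mouse. In nAAC the ascending aorta is constricted by surgery in the newborn mouse. Sham mice had the sham operation at the same stage, and both groups stayed with their mothers. Each number from 1 to 5 names a mouse within its group. The sample titles state no pairing across groups, and the mice were treated as unpaired. RNA came from whole LV tissue, so that in each result fewer cells of a type and less RNA per cell cannot be told apart.

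Complex I (NADH:ubiquinone oxidoreductase) is the entry point for electrons from NADH into the respiratory chain of the inner mitochondrial membrane. Its matrix arm oxidizes NADH and passes electrons along iron-sulfur clusters to ubiquinone, and its membrane arm pumps protons. The core subunits carry the catalysis, the accessory subunits surround and stabilize them, and assembly factors help to build the enzyme without remaining in it. The membrane core is encoded by mitochondrial DNA, and all other subunits are encoded in the nucleus. Heart muscle is among the tissues richest in this enzyme.

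Of the 37 subunits, 3 fell in nAAC mice and none rose at an adjusted p below 0.05 (limma on log2(FPKM + 1)). The 3 that fell, Ndufs1, Ndufv2 and Ndufs4, all belong to the part of the matrix arm that takes up NADH. These 3 are 8.11% of the subunits, where 4.6% of all 11867 tested genes fell and 27.1% rose at the same threshold. Not every gene of that part passed the test, and the part was not tested as a set. Ndufv1, which binds the flavin there, did not pass (log2 FC −0.34, limma adjusted p = 0.24). Of the 9 accessory genes of the matrix arm 1 fell, and 6 had a negative and 3 a positive log2 FC. At an unadjusted p below 0.05 in the same fit, 4 subunits were lower (with Ndufa9) and 0 were higher, where 6.63% of all genes were lower and 36.8% were higher. None of the subunits passed the added threshold of an absolute log2 fold change (FC) above 1, which 5.91% of all genes passed. A negative log2 FC was seen in 28 of 37 subunits, against 23.4% of all genes, and 35 of 37 lay below the median log2 FC of all genes, which was 0.22. The median log2 FC of the subunits was −0.19, or −0.42 relative to that of all genes. This median moved with single libraries. Without sham 4 it was −0.01, or −0.24 relative to all genes, and 19 of 37 subunits were negative. Without both sham 4 and nAAC 1 it was 0.14, or −0.12 relative to all genes. This pair was chosen after the subunit values were seen.

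Scaling changed the count more than any single mouse did. With median-ratio scaling, which sets the median gene near no difference, 13 of 37 subunits fell (35.1%) and none rose, where 12.1% of all genes fell and 13.2% rose. With the transcript length and GC trend of each library removed, 17 of 37 fell (45.9%) and none rose, where 16.1% of all genes fell and 14.2% rose. With TPM in place of FPKM, 1 subunit (Ndufs1) fell and none rose, where 383 of 12954 tested genes fell and 5304 rose. Which scaling is closer to the RNA content of the tissue cannot be told from these tables.

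**Figure D1:**
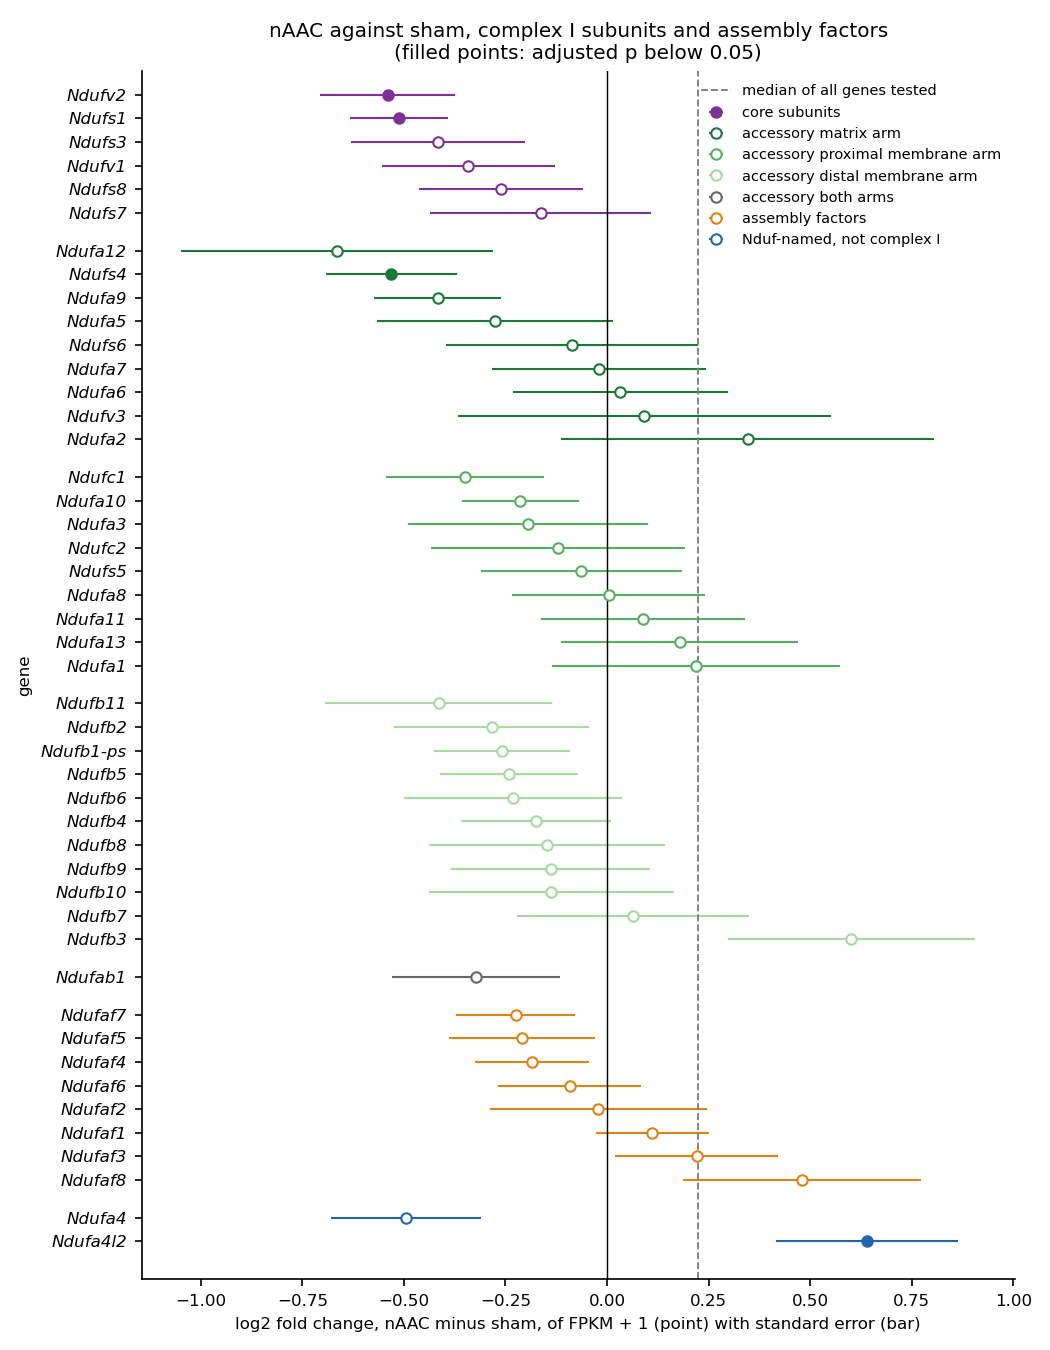
Log2 fold change (nAAC minus sham, of FPKM + 1) of complex I subunits, assembly factors and Nduf-named genes on the horizontal axis, with its standard error as a bar; filled points have an adjusted p below 0.05 and the dashed line is the median of all tested genes. All core subunits shown lie left of 0, and the only filled points are Ndufs1, Ndufv2 and Ndufs4 on the left and Ndufa4l2 on the right.

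The level of these genes was high in both groups. Mean FPKM of the subunits ran from 62.8 (Ndufs4) to 409 (Ndufb9), a 6.51-fold range around a median of 169.9, and all 37 stood between the 94.5 and the 99.1 percentile of tested genes. The assembly factors ran from 9.67 to 19.5 FPKM, against 5.76 for the median tested gene. The order of the subunits by mean FPKM was similar in both groups, with a Spearman rho of 0.95 over 37 genes that share the same libraries. As a share of TPM outside mitochondrial genes, all Nduf genes together made up 1.79% ± 0.233 (SD, n = 5) in nAAC and 2.11% ± 0.547 (SD, n = 5) in sham mice.

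Sham 4 stood apart in these genes. It was the highest of the 10 libraries for 36 of 37 subunits and the highest sham library for all 37, and its ratio to the mean of sham 1, 2, 3 and 5 ran from 1.16 to 3.78 with a median of 2.10. The lowest nAAC library was nAAC 1 for 34 of 37 subunits. The median deviation of the 37 subunits from their gene means was −0.44, 0.21, −0.02, −0.0042 and −0.12 on the log2 scale in nAAC mice 1 to 5, and −0.18, −0.29, −0.22, 0.95 and 0.27 in sham mice 1 to 5. The groups therefore overlapped in this measure, with sham 1 to 3 lower than nAAC 2 to 5. The spread of single subunits was wider in sham mice, with a median coefficient of variation (CV) of 43.7% against 16.7% in nAAC mice, where all genes had 22.4% and 15.1%. The summed cardiomyocyte markers were also highest in sham 4, at 42547 FPKM against 19922 to 31979 in the other 9 libraries, and its share of TPM in mitochondrial genes was 33.7%, against 38.3% to 49.8% in the other sham mice. The part of these differences in the subunit values was not tested.

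**Figure D2:**
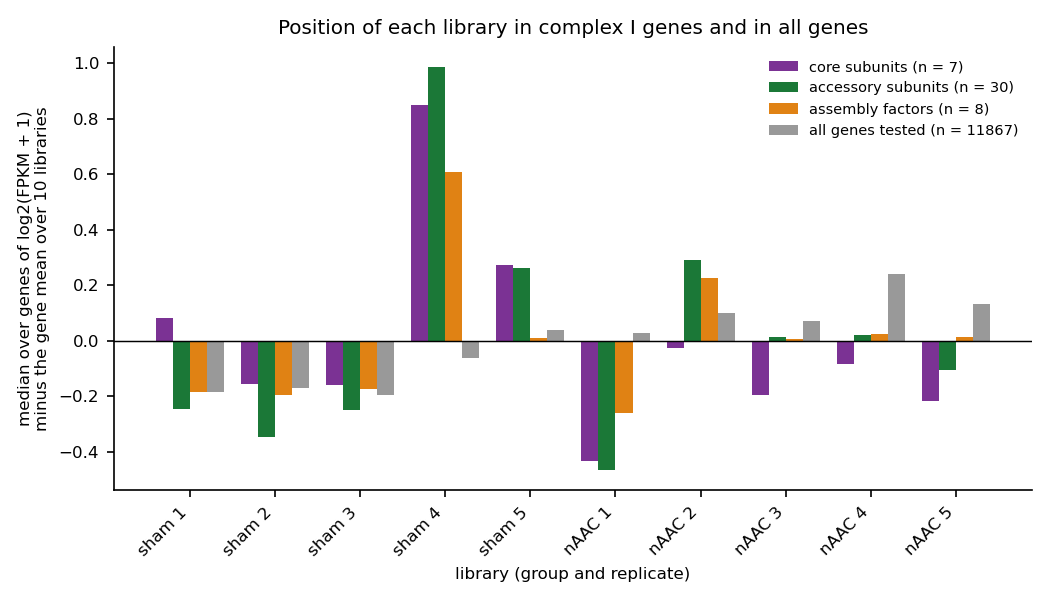
Median over genes of log2(FPKM + 1) minus the gene's mean over the 10 libraries (vertical axis), for core subunits, accessory subunits, assembly factors and all tested genes in each library. Sham 4 stands highest and nAAC 1 lowest for all 3 complex I classes, while the bars of all genes stay near 0 in both.

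Core subunits were taken first. Ndufs1, on chromosome 1 (positions 63143596 to 63176833 of mm10), is the largest subunit of the NADH-oxidizing module and holds several of its iron-sulfur clusters. In nAAC mice 1 to 5 Ndufs1 measured 130.2, 160.4, 144, 156 and 149 FPKM, and in sham mice 1 to 5 it measured 199.6, 208, 198, 238 and 213 FPKM. Every nAAC mouse lay below every sham mouse. The nAAC mean was 69.99% of the sham mean, with a log2 FC of −0.51 (SE 0.12, limma adjusted p = 0.0061) and p = 0.0079 by the two-sided exact permutation test, the smallest that 5 against 5 can give. The call held in all 22 alternative settings, with a log2 FC between −0.79 and −0.34.

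Ndufv2, on chromosome 17 (positions 66078638 to 66101559), carries an iron-sulfur cluster close to the NADH site. The FPKM of Ndufv2 was 124, 172, 145, 142 and 149 in nAAC mice 1 to 5, against 178, 206, 202, 314 and 187 in sham mice 1 to 5. The groups did not overlap here either, the highest nAAC value being 172 and the lowest sham value 178, while sham 4 stood far above its group. The log2 FC was −0.54 (SE 0.17, limma adjusted p = 0.026, exact permutation p = 0.0079), and −0.40 (adjusted p = 0.020) without sham 4. The call was lost when nAAC 1, 3, 4 or 5 was left out, with adjusted p from 0.051 to 0.058. It was also lost with TPM (adjusted p = 0.080) and with Xist, a marker of female mice, as a covariate (adjusted p = 0.13).

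These are the only 2 subunits whose groups did not overlap with nAAC lower, and 3.46% of all tested genes had such a separation. No subunit had every nAAC mouse above every sham mouse, a pattern found in 18.9% of all genes.

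None of the other core subunits passed the test, though each had a negative log2 FC. Ndufv1 binds the flavin that takes electrons from NADH. For Ndufv1, nAAC mice 1 to 5 had 164, 236, 199, 218 and 179 FPKM and sham mice 1 to 5 had 234, 184, 188, 402 and 304 FPKM. Its log2 FC was −0.34 (SE 0.21, adjusted p = 0.24), and sham 1 to 3 lay within the nAAC range. Ndufs3 is part of the module that leads electrons to ubiquinone. Ndufs3 stood at 125, 129, 130.2, 269 and 163 FPKM in sham mice 1 to 5 and at 89.7, 145, 110.04, 129 and 116 FPKM in nAAC mice 1 to 5. Its log2 FC was −0.42 (SE 0.21, adjusted p = 0.15), with nAAC 2 above sham 1 to 3 and nAAC 4 among them.

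Ndufs7 lies close to the ubiquinone site. Ndufs7 was at 288, 253, 265, 258 and 293 FPKM in nAAC mice 1 to 5 and at 368, 178, 191, 559.8 and 367 FPKM in sham mice 1 to 5. This gene, with a log2 FC of −0.16 (SE 0.27, adjusted p = 0.67), had a narrow nAAC group inside a wide sham group, in which sham 2 and 3 were lower than every nAAC mouse. Ndufs8 binds iron-sulfur clusters on the way to ubiquinone. In nAAC mice 1 to 5 Ndufs8 measured 107, 134, 119, 135 and 129 FPKM, and in sham mice 1 to 5 it measured 147, 112, 113, 251 and 157 FPKM. The fitted log2 FC was −0.26 (SE 0.20, adjusted p = 0.34), with sham 2 and 3 again within the nAAC range. With median-ratio scaling, Ndufs3, Ndufs8 and Ndufv1 joined Ndufs1 and Ndufv2 among the subunits that fell.

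**Figure D3:**
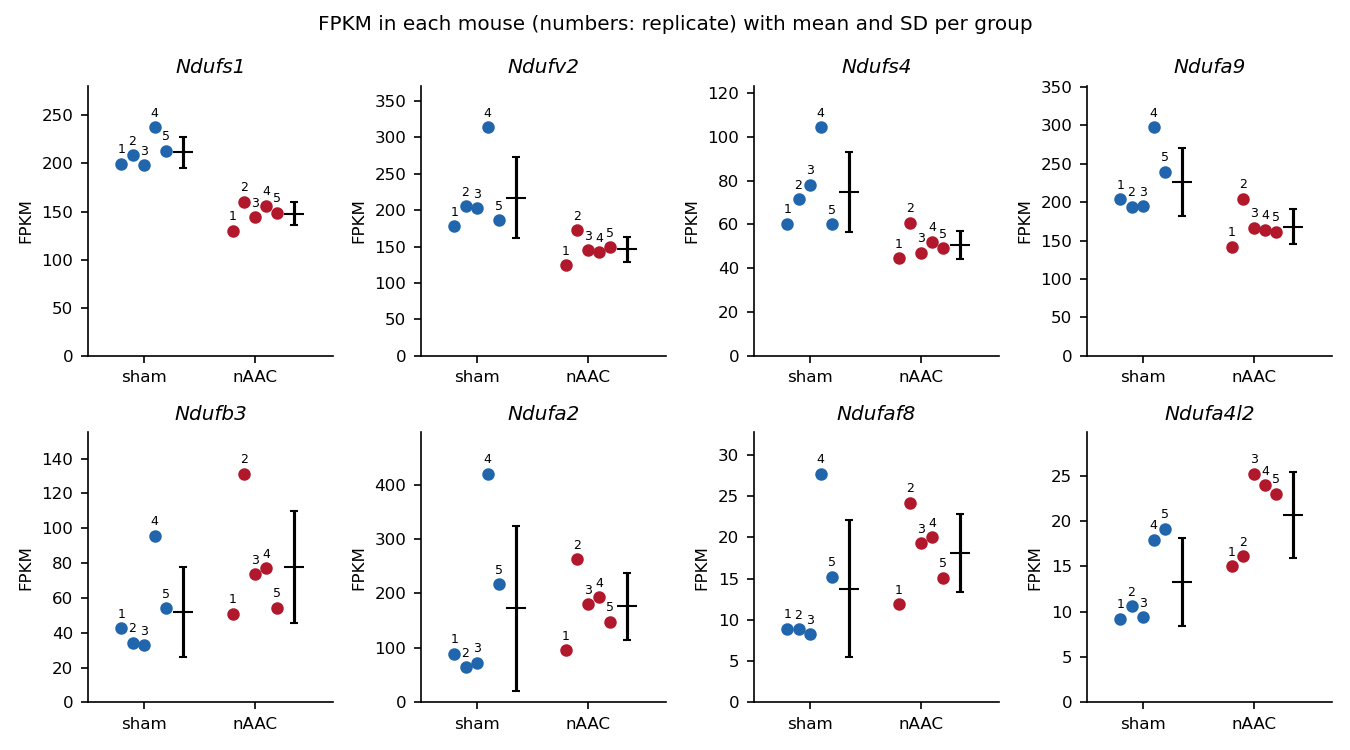
FPKM (vertical axes, from 0) of 8 members in each sham and nAAC mouse, numbered by replicate, with the group mean and SD beside the points. Ndufs1 and Ndufv2 separate the groups, Ndufs4 separates them but for nAAC 2, and in Ndufb3, Ndufa2 and Ndufaf8 sham 4 lies far above sham 1 to 3.

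For the regulatory sequence of these genes, windows from 250 bases before to 50 bases after the start site came from a table of RefSeq promoters (GRCm38.p6) that holds 40 of the 53 genes, of which 32 are subunits. Ndufs1 is not in the table used here. The 250 bases before the start of Ndufv2, which fell, of Ndufa9, which narrowly missed the threshold, and of Ndufb3, the subunit with the highest log2 FC, are given 5′ to 3′ on the strand of the gene, with the letters of a searched motif on either strand in capitals. Ndufv2 lies on the minus strand (chr17:66101560-66101809), Ndufa9 on the minus strand (chr6:126849145-126849394) and Ndufb3 on the plus strand (chr1:58586147-58586396).
Ndufv2: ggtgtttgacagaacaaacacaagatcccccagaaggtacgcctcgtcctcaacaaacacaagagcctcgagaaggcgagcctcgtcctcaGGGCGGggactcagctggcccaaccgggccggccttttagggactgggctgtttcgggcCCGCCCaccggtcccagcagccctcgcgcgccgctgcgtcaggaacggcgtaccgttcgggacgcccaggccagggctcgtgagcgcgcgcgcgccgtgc
Ndufa9: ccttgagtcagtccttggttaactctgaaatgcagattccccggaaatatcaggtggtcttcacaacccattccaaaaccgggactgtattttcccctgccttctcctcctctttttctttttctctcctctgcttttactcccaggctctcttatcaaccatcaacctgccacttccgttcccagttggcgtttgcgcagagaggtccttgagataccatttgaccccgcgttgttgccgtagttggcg
Ndufb3: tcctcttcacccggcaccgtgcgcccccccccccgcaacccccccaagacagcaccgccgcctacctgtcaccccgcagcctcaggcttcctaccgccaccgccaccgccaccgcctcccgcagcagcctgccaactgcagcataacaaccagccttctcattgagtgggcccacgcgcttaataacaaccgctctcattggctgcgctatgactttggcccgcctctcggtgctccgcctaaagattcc
The capitals in Ndufv2 are 2 matches to the Sp1 core (GGGCGG), and the other sequences hold none of the searched motifs in these bases. Over the whole windows and on both strands, the Sp1 core was in 15 of 32 subunit windows (46.9%) and in 66.3% of all 8763 windows of that length. The YY1 core (AAGATGGC) was in 7 of 32 subunit windows (21.9%), namely Ndufa3, Ndufa9, Ndufb8, Ndufc1, Ndufs4, Ndufs6 and Ndufs7, and in 5.01% of all windows. In Ndufa9 and Ndufs4 it was not within the 250 bases before the start. The NRF1 core (GCGCATGC) was in 3 subunit windows (9.38%, all windows 5.67%), the ERR half-site (AAGGTCA) in 3 (9.38%, all windows 2.98%) and the ETS or GABPA core (CCGGAAG) in 4 (12.5%, all windows 19.3%). Matches of different motifs may overlap, since the end of the ETS letters and the start of the YY1 letters can share bases. A match describes the letters only.

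Accessory subunits of the matrix arm came next. Of these 9 genes, 1 fell and none rose, where 4.6% of all tested genes fell and 27.1% rose. The median log2 FC of the 9 was −0.09. Ndufs4, on chromosome 13 (positions 114287795 to 114388258), supports the NADH-oxidizing module, and its loss in mice gives an encephalopathy like Leigh syndrome. The FPKM of Ndufs4 was 44.5, 60.9, 47.1, 52.1 and 49.2 in nAAC mice 1 to 5, against 60.4, 71.5, 78.04, 104 and 60.2 in sham mice 1 to 5. The groups touched, since nAAC 2 lay just above the lowest sham mice, sham 1 and 5. The log2 FC was −0.53 (SE 0.16, limma adjusted p = 0.024), and −0.40 (adjusted p = 0.026) without sham 4. The call was lost without nAAC 1, 3 or 5 or sham 3 (adjusted p from 0.053 to 0.057), with TPM (adjusted p = 0.075) and with Xist as a covariate (adjusted p = 0.16).

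Ndufa9 sits where the matrix arm meets the membrane and binds a nicotinamide nucleotide. For Ndufa9, nAAC mice 1 to 5 had 142, 205, 167, 164 and 162 FPKM and sham mice 1 to 5 had 204, 194, 195, 298 and 239.9 FPKM. Only nAAC 2 reached the sham range, and the log2 FC of −0.42 (SE 0.16) narrowly missed the threshold (adjusted p = 0.058). It passed without nAAC 2 (adjusted p = 0.043) and with median-ratio scaling (adjusted p = 0.0025).

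Ndufa2, a small subunit with a thioredoxin-like fold, had the highest log2 FC of the matrix arm. Ndufa2 stood at 89.6, 64.5, 73.2, 419.97 and 218 FPKM in sham mice 1 to 5 and at 96.1, 263, 180.1, 193 and 148 FPKM in nAAC mice 1 to 5. Sham 1 to 3 lay below every nAAC mouse, whereas sham 4 was the highest of all, so that the group means were close and the log2 FC was 0.35 (SE 0.46, adjusted p = 0.58). Without sham 4 it was 0.76 (adjusted p = 0.10). Without sham 4 and nAAC 1, a pair left out after the subunit values were seen, it was 0.96. The limma adjusted p of 0.038 in that setting is therefore not an independent test. The other 5 matrix arm genes not yet named (Ndufa5 −0.27, Ndufa6 0.03, Ndufa7 −0.02, Ndufs6 −0.09 and Ndufv3 0.09, each as log2 FC) did not pass the test.

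Ndufa12 had the most negative log2 FC of any subunit. It binds late in assembly, at the place held before by the assembly factor Ndufaf2. Ndufa12 was at 26.2, 47.99, 68.03, 47.7 and 81.6 FPKM in nAAC mice 1 to 5 and at 52.3, 46.9, 61.6, 189 and 121 FPKM in sham mice 1 to 5. The log2 FC was −0.66 (SE 0.38, adjusted p = 0.20), and only sham 4 and 5 lay above the nAAC range. This gene can share reads with a processed copy on chromosome 5, Ndufa12-ps, which matches its transcript in 400 of 402 bases. Both mismatches are shown in capitals with the bases around them, from the GENCODE M21 transcripts, and the second stretch ends with the stop codon.
Ndufa12, first mismatch: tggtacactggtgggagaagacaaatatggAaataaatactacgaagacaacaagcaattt
Ndufa12-ps, first mismatch: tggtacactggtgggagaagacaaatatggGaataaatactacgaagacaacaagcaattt
Ndufa12, second mismatch: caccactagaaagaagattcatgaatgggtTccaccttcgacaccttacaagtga
Ndufa12-ps, second mismatch: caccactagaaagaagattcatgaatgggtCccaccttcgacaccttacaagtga
Counted from the first base of the Ndufa12 coding sequence, the changes from the gene to the copy are A135G and T414C. Reads from the shared stretch that cover neither base match both loci. In nAAC mice 1 to 5 Ndufa12-ps measured 51.3, 169, 148, 142 and 116 FPKM, and in sham mice 1 to 5 it measured 61.5, 96.7, 93.05, 200.1 and 124 FPKM. The copy was listed at a mean of 120.2 FPKM over the 10 libraries and its gene at 74.2, so that the copy reached 162% of the gene. The log2 FC of the copy was 0.12 (adjusted p = 0.80), and the sum of both had −0.16 (adjusted p = 0.74) in place of −0.66.

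Copies bear on 3 more subunits at 10% or more of the gene. Ndufab1, the mitochondrial acyl carrier protein and the one subunit present in both arms, has Gm4459 (99.8% identity over 468 bases) and Ndufab1-ps (99.4% over 469 bases), which together reached 71.4% of its FPKM. Ndufb4c is identical to Ndufb4 over 390 bases and reached 33.1%, and Gm12251 (98.6% over 792 bases) reached 17.3% of Ndufs3. After the copies were added to their genes, the count of subunits that fell was again 3, and Ndufs3 had a log2 FC of −0.43 (adjusted p = 0.14). The 2 lowest copies tested were Ndufs5-ps and Ndufs6b. The FPKM of Ndufs5-ps was 2.12, 4.13, 5.41, 3.88 and 3.92 in nAAC mice 1 to 5, against 2.63, 1.68, 1.87, 8.29 and 4.55 in sham mice 1 to 5. For Ndufs6b, nAAC mice 1 to 5 had 3.17, 4.32, 5.40, 3.96 and 5.06 FPKM and sham mice 1 to 5 had 3.60, 2.32, 1.85, 11.6 and 7.38 FPKM. Sham 4 was the highest library for both, and neither passed the test (adjusted p = 0.72 and 0.97).

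The membrane arm held no subunit that passed the test in either direction. At the same threshold 4.6% of all tested genes fell and 27.1% rose. The proximal part, next to the matrix arm, has 9 nuclear accessory genes with a median log2 FC of −0.06 and a range from −0.35 (Ndufc1) to 0.22 (Ndufa1). Ndufa1 is X-linked and enters at an early stage of assembly. Ndufa1 stood at 88.4, 78.4, 79.3, 248 and 169 FPKM in sham mice 1 to 5 and at 73.6, 239, 149, 152 and 126 FPKM in nAAC mice 1 to 5. The estimated log2 FC was 0.22 (SE 0.35, adjusted p = 0.66), and sham 1 to 3 lay below all nAAC mice but nAAC 1. Without sham 4 and nAAC 1, a pair left out after the subunit values were seen, it was 0.71. The limma adjusted p of 0.048 in that setting is therefore not an independent test.

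The distal part has 11 genes with a median log2 FC of −0.18. Ndufb9, the subunit with the highest mean FPKM, belongs to the LYR family of small mitochondrial proteins. Ndufb9 was at 299, 476, 398, 405 and 319 FPKM in nAAC mice 1 to 5 and at 372, 285, 314, 743 and 480.2 FPKM in sham mice 1 to 5. Its log2 FC was −0.14 (SE 0.25, adjusted p = 0.69) and the groups overlapped. Ndufb3, a small subunit anchored in the membrane, had the highest log2 FC of all subunits. In nAAC mice 1 to 5 Ndufb3 measured 50.98, 131, 73.7, 77.2 and 54.5 FPKM, and in sham mice 1 to 5 it measured 42.7, 34.2, 32.8, 95.7 and 54.2 FPKM. Sham 1 to 3 lay below every nAAC mouse, and the log2 FC was 0.60 (SE 0.30, adjusted p = 0.15). Without sham 4 it was 0.85 (adjusted p = 0.020). Ndufb1-ps, named as a pseudogene in the tables and as the protein-coding Ndufb1 by RefSeq, was counted as a subunit here and had a log2 FC of −0.26 (adjusted p = 0.25).

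The subunits with higher and lower log2 FC differed in transcript length. Over the 37 subunits the log2 FC had a Spearman rho of −0.45 with the length of the longest annotated transcript, and again −0.45 without sham 4. These genes share their libraries, and the value is a description. The subunits are short, with a median longest transcript of 1005 bases against 3159 for all tested genes. The 3 subunits that fell had 1697 (Ndufv2), 1698 (Ndufs4) and 2661 bases (Ndufs1), while Ndufa1, Ndufa2 and Ndufb3 had 419, 572 and 763 bases. Single genes departed from this order. The longest by this measure, Ndufb7 (4435 bases) and Ndufb2 (4371 bases), had a log2 FC of 0.06 and −0.28 and did not pass the test. The longest annotated transcript need not be the one expressed in the LV, and which form was expressed was not tested. For Ndufb7 it covers most of the gene, which lies at positions 83566671 to 83571626 of chromosome 8. Ndufb6, with 659 bases, had −0.23.

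**Figure D4:**
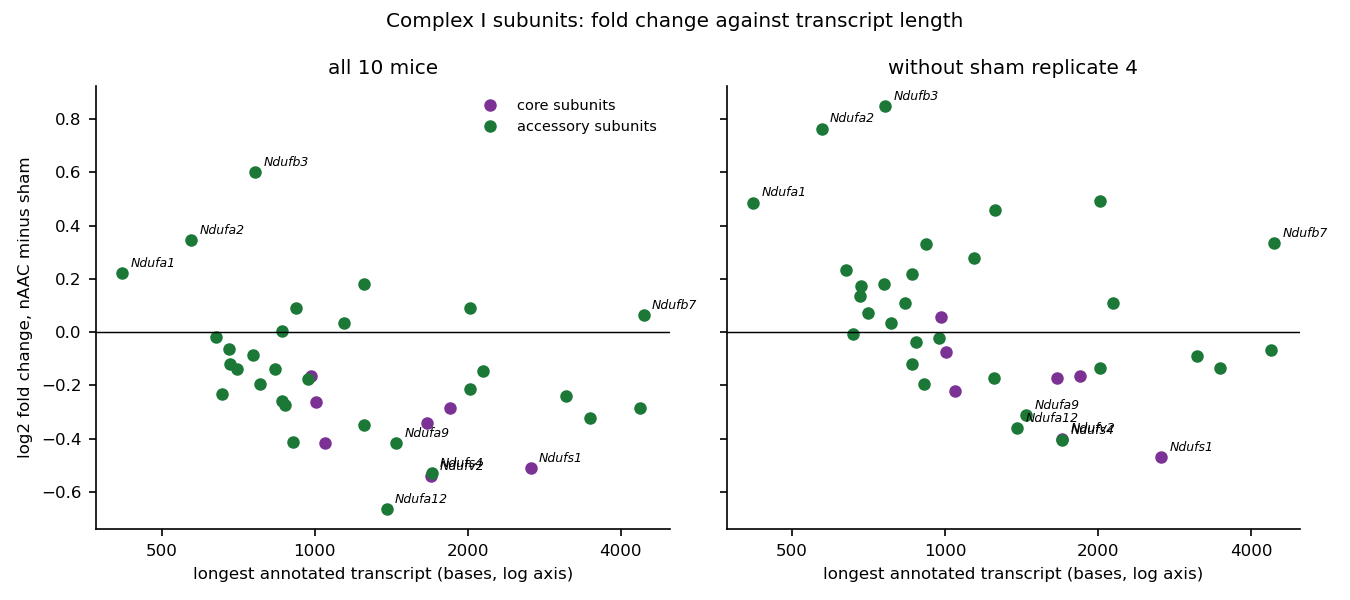
Log2 fold change (vertical axis) of the 37 subunits against the length of their longest annotated transcript (horizontal log axis), with all 10 mice on the left and without sham replicate 4 on the right. The short transcripts Ndufa1, Ndufa2 and Ndufb3 stand near the top and Ndufs1, Ndufv2 and Ndufs4 near the bottom in both panels. Ndufb7, the longest by this measure, lies just above 0 on the left. The points as a whole lie higher on the right.

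None of the 8 assembly factors passed the limma test in either direction, 0 of them also at an unadjusted p below 0.05 (all genes 6.63% lower and 36.8% higher), and their median log2 FC was −0.06. Ndufaf8 and Ndufaf5 act together in the modification of Ndufs7. The FPKM of Ndufaf8 was 11.9, 24.2, 19.3, 20.03 and 15.1 in nAAC mice 1 to 5, against 8.94, 8.90, 8.24, 27.7 and 15.2 in sham mice 1 to 5. For Ndufaf5, nAAC mice 1 to 5 had 6.78, 11.1, 9.47, 9.61 and 8.01 FPKM and sham mice 1 to 5 had 8.32, 10.02, 10.03, 16.8 and 8.65 FPKM. Ndufaf8 had the highest log2 FC of the class, 0.48 (SE 0.29, adjusted p = 0.22), with sham 1 to 3 below every nAAC mouse and sham 4 above them all. Without sham 4 its log2 FC was 0.76 (adjusted p = 0.015). Ndufaf5 had a log2 FC of −0.21 (SE 0.18, adjusted p = 0.39).

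Ndufaf3 and Ndufaf4 bind each other and the early matrix arm. Ndufaf3 stood at 7.81, 7.33, 7.57, 15.8 and 12.9 FPKM in sham mice 1 to 5 and at 8.92, 13.1, 12.7, 12.04 and 11.7 FPKM in nAAC mice 1 to 5. Ndufaf4 was at 10.97, 15.6, 13.9, 12.9 and 14.8 FPKM in nAAC mice 1 to 5 and at 13.4, 15.7, 19.00, 18.00 and 12.5 FPKM in sham mice 1 to 5. Their log2 FC differed in sign, at 0.22 (SE 0.20, adjusted p = 0.41) for Ndufaf3 and −0.18 (SE 0.14, adjusted p = 0.33) for Ndufaf4, and neither passed the test. Ndufaf1 is part of the complex that assembles the membrane arm. In nAAC mice 1 to 5 Ndufaf1 measured 17.7, 24.5, 19.6, 20.03 and 19.2 FPKM, and in sham mice 1 to 5 it measured 16.9, 18.5, 16.5, 25.3 and 16.7 FPKM. This gave a log2 FC of 0.11 (SE 0.14, adjusted p = 0.56). Ndufaf7 is a methyltransferase of the matrix arm's assembly and had the lowest mean FPKM of the assembly factors. The FPKM of Ndufaf7 was 8.66, 9.84, 7.05, 9.02 and 9.36 in nAAC mice 1 to 5, against 9.12, 7.67, 11.6, 13.6 and 10.9 in sham mice 1 to 5. Here the log2 FC was −0.22 (SE 0.15, adjusted p = 0.25). The chaperone Ndufaf2 and the early factor Ndufaf6 stood at −0.02 and −0.09.

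The log2 FC of both genes that carry the Nduf name outside complex I differed in sign. Ndufa4, first described in complex I, is now assigned to complex IV. For Ndufa4, nAAC mice 1 to 5 had 436, 733, 642, 621 and 555 FPKM and sham mice 1 to 5 had 657, 851, 875, 1107 and 731 FPKM. It had the highest FPKM of all Nduf genes, and its log2 FC was −0.50 (SE 0.18, adjusted p = 0.056), with sham 1 and 5 inside the nAAC range. Ndufa4l2 is a paralog known to be induced by hypoxia. Ndufa4l2 stood at 9.23, 10.6, 9.36, 17.95 and 19.1 FPKM in sham mice 1 to 5 and at 15.02, 16.1, 25.2, 23.9 and 23.01 FPKM in nAAC mice 1 to 5. Ndufa4l2 rose in nAAC mice, with a log2 FC of 0.64 (SE 0.22, limma adjusted p = 0.045, exact permutation p = 0.048), although sham 4 and 5 lay above nAAC 1 and 2. At that threshold 27.1% of all tested genes rose. The call held in 11 of 22 alternatives. It was lost, among others, with median-ratio scaling (log2 FC 0.38, adjusted p = 0.16) and without nAAC 3, 4 or 5 or sham 1, 2 or 3 (adjusted p from 0.092 to 0.11). It was also lost with Xist as a covariate (log2 FC 0.26, adjusted p = 0.44) and with the length and GC trend removed (0.24, adjusted p = 0.19).

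The other genes of the pathway were read from lists of names. The 7 subunits encoded by mitochondrial DNA all had a negative log2 FC, with a median of −0.39, and none passed the limma test, while 3 of 7 had an unadjusted p below 0.05, where 6.63% of all genes were lower at that threshold. Their summed FPKM was 86094, 80387, 70145, 64296 and 74619 in nAAC mice 1 to 5, and 110466, 123405, 119013, 69957 and 80764 in sham mice 1 to 5. Sham 4, the highest library for the nuclear subunits, was thus the lowest sham library for the mitochondrial ones. Of 11 assembly factors without the Nduf name, only Tmem70, known for the assembly of ATP synthase and of complex I, fell (log2 FC −0.47, SE 0.14, adjusted p = 0.019). At the same threshold 4.6% of all tested genes fell.

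Among all tested genes 4.6% fell and 27.1% rose at the threshold used for the counts in these lists. In complexes II to V, 1 gene of each list fell and none rose. These were Sdha of 4 tested (log2 FC −0.56), Uqcrc2 of 9 (−0.35), Cox6c of 11 (−0.54) and Atp5c1 of 14 (−0.56), and the list medians were −0.43, −0.30, −0.29 and −0.32. Of 14 genes listed for the NADH side of the pathway, 3 fell, namely Cs (log2 FC −0.51), Idh3a (−0.56) and Dld (−0.51). These 3 act in or feed the citric acid cycle. Nnt, also in that list, was very uneven between mice of the same group. Its mean was 99.4 ± 82.4 FPKM (SD, n = 5) in nAAC and 57.7 ± 80.9 (SD, n = 5) in sham mice. It did not pass the limma test (adjusted p = 0.58), and the cause of its spread was not tested. Of 10 regulators of mitochondrial biogenesis, Esrrb rose (0.51) and none fell. Of 12 outer membrane and import genes, Vdac3 fell (−0.40) and none rose.

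Markers of cell types were read beside these values, where 4.6% of all tested genes fell and 27.1% rose at the threshold used. Of 12 cardiomyocyte markers 3 fell (Tnni3, Atp2a2 and Pln) and 2 rose (Actc1 and Mybpc3), and none was at 0 in any library. Their sum ran from 19922 to 31740 FPKM in nAAC and from 22507 to 42547 in sham mice. Of 8 fibroblast markers 6 rose, with a sum of 580 to 1023 FPKM in nAAC and 391 to 449 in sham mice. Of 6 smooth muscle and pericyte markers 5 rose (sums 257 to 373 and 162 to 271), and of 6 endothelial markers 1 rose, Kdr (sums 345 to 734 and 445 to 746). Of 5 macrophage markers tested 1 rose, C1qa (sums 112 to 219 and 74.0 to 165), and Cidea, the 1 fat marker tested, rose (sums 14.03 to 24.3 and 5.26 to 17.7). None of 5 erythroid markers passed the test (sums 3396 to 8802 and 2292 to 8661). The 3 atrial markers, of which none passed the test, summed to 2.03 to 227 FPKM in nAAC and 3.05 to 44.7 in sham mice. Their level was thus uneven between libraries, and whether it came from atrial tissue or from the ventricle was not tested. The part of these markers in the complex I values was not tested.

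**Figure D5:**
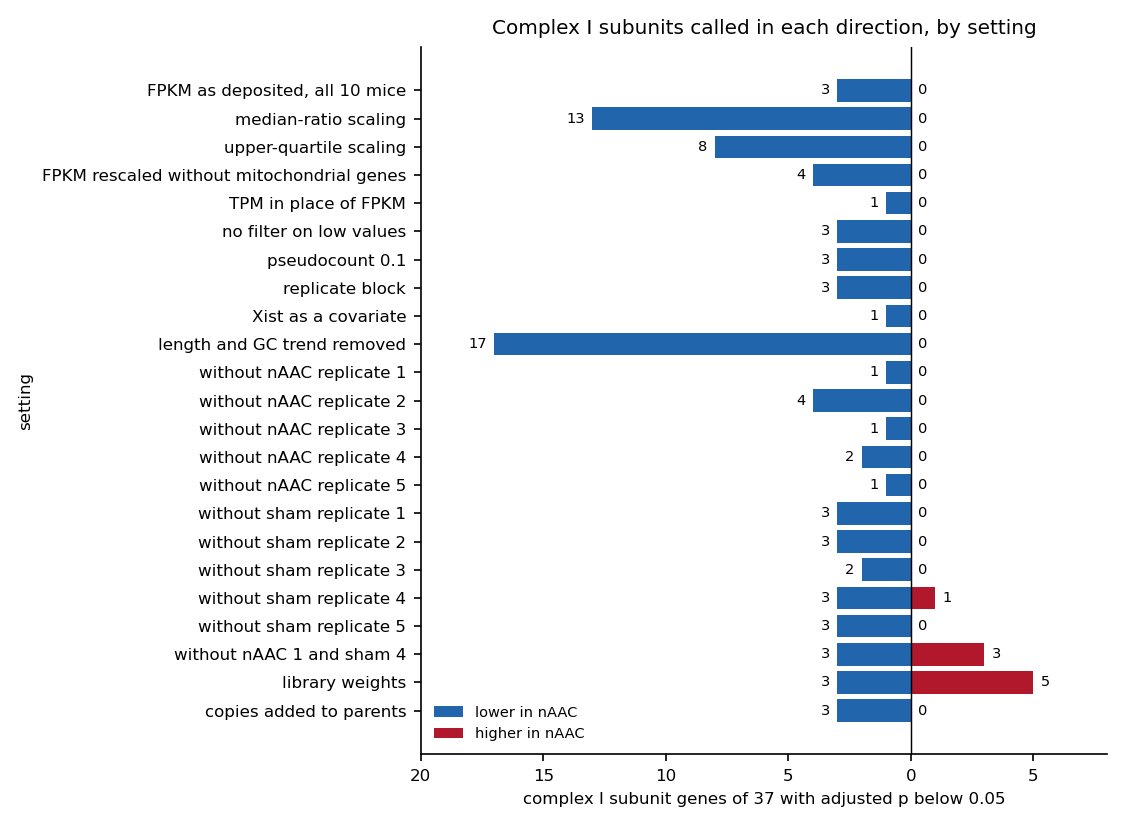
Number of the 37 complex I subunits with an adjusted p below 0.05 (horizontal axis), lower in nAAC to the left and higher to the right, under each setting (rows). The count lower in nAAC runs from 1 to 17, and subunits higher in nAAC appear only in the 3 settings that leave out or weigh down sham 4. In those 3 settings 3930 to 5695 of all 11867 tested genes were higher, against 3211 with all mice. Leaving out nAAC 1 with sham 4 and the library weights were chosen after the data were seen.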

How the data were processed

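LV tissue of 5 nAAC and 5 sham mice was sequenced by the study after Trizol extraction and NEBNext Ultra RNA libraries, with 1 library per mouse. Each deposited table holds the FPKM the authors computed per gene, the TPM to which the authors rescaled it and a coverage. FPKM and TPM are normalized values. The ratio of FPKM to coverage was uneven between genes, at 0.147 to 23.6 among Nduf genes above 1 FPKM in nAAC 1. The coverage was therefore not read as a depth. The submitters' processing notes name mm10. The aligner, the quantification tool and the use of strand are not given in the sources used here, and reads of overlapping or copied genes cannot be assigned. Whole reads and depth could not be recovered from these values, and the spread between mice is the only measure of precision.

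Rows sharing a gene ID (7 to 12 per library, none of them Nduf) were summed, and log2(FPKM + 1) of the 11867 genes with a mean of at least 1 FPKM was fitted with limma 3.58.1 in R 4.3.3, with an empirical Bayes trend and Benjamini-Hochberg adjustment over all of them. Fold changes of low genes come out too small on this scale. The limma p values set the difference between the groups against the spread between mice. Two-sided exact permutation tests compared 5 with 5 values of single genes. Values in every library are given for the core subunits, members past the threshold, the 3 largest increases and decreases among accessory subunits and among assembly factors, the 3 highest and 3 lowest mean levels, Ndufa4 and Ndufa4l2. Of these, 1 member is not reported here by name, and it remains in the counts over the subunits. Pathway genes are named when past the threshold, and Nnt is named for its spread, after its values were seen. The members and lists were chosen with earlier results of these data known. Other genes, such as the copies Gm4459 and Gm12251 and the windows printed, were chosen after their values were seen. Copies were found with blastn 2.17.0 against GENCODE M21 transcripts (at least 90% identity, 150 aligned bases and 80% of the copy). All 53 Nduf genes have the same start and end in M21. The fit was tested on simulated data. As alternatives, FPKM was scaled by median ratios or by upper quartiles, or rescaled without mitochondrial genes, TPM was used in its place, the filter was dropped, the pseudocount was set to 0.1, a replicate block or Xist entered the model, the trend with transcript length and GC was removed by loess, stricter thresholds were set, and each mouse was left out. Leaving out nAAC 1 and sham 4 together, library weights (limma arrayWeights) and adding copies to their genes were chosen after seeing the data. Figures were drawn with matplotlib 3.10.9 in Python 3.11.15.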

Additional observations from a re-analysis of the deposited data

Results flagged for a closer look

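In groups of 5 mice, the gap between the highest or lowest mouse and its nearest neighbour was divided by the range of the group, and a share above 0.71 was marked. Of 60 groups examined 4 were above it. Chance alone would give about 1 in 20, or 3, if the groups were independent. The groups come from the same mice and are not independent, so the count of 4 cannot be judged against 3. All 4 groups above 0.71 had sham 4 as the highest sham mouse. They were Ndufv2 (0.746), Ndufaf5 (0.739), Ndufaf1 (0.731) and the library median of the assembly factors (0.744). Without sham 4 the log2 FC of Ndufv2 was −0.40 and it still passed the test.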

How the results depend on the processing

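The direction of every named member that passed the test stayed the same under the 22 alternatives, and of 526 pairs of a named member and a setting 460 stayed on their side of the threshold, 43 passed it anew, 23 lost it and none turned from a called direction to the other. Among members not called, 27 pairs changed sign. The number of subunits that fell was 3 with all mice, 13 with median-ratio scaling, 8 with upper-quartile scaling, 17 with the length and GC trend removed, and 1 each with TPM, with Xist as a covariate and at an adjusted p below 0.01. At the added threshold of an absolute log2 FC above 1 it was 0. Leaving out 1 mouse at a time gave 1 to 4, with 1 without nAAC 1, 3 or 5. Of all 11867 genes 996 fell with upper-quartile scaling, 390 with Xist as a covariate and 426 to 621 with 1 mouse left out. With the length and GC trend removed 1908 of 11860 genes fell, and with TPM 383 of 12954. Subunits that rose numbered 0 with all mice, 3 without nAAC 1 and sham 4 (Ndufa1, Ndufa2 and Ndufb3), 5 with library weights (also Ndufa11 and Ndufa13), and 0 to 1 with 1 mouse left out, the 1 being Ndufb3 without sham 4. Leaving out nAAC 1 with sham 4 and the library weights were chosen after the data were seen, so counts under them are descriptions only. Of all 11867 genes 4210 rose without nAAC 1 and sham 4, 5695 with library weights and 3930 without sham 4 alone, against 3211 with all mice. The median log2 FC of the subunits turned positive without nAAC 1 and sham 4 (0.14) and with library weights (0.063), where sham 4 had a weight of 0.21. The number of assembly factors that fell was 2 with median-ratio scaling and 1 with the length and GC trend removed. Those that rose numbered 2 without nAAC 1 and sham 4, 2 with library weights and 0 to 1 with 1 mouse left out. The median log2 FC of the assembly factors was 0.10 with TPM, 0.20 without nAAC 1 and sham 4, 0.16 with library weights and between −0.15 and 0.12 with 1 mouse left out, positive without nAAC 1 (0.05) and without sham 4 (0.12). The cause of these shifts was not tested. Over all tested genes 546 fell and 3211 rose (85.5% of calls upward), against 1431 and 1563 (52.2% upward) with median-ratio scaling. All genes had a median of 0.22 with FPKM and near 0 under median-ratio scaling, and the subunit median relative to it was −0.42 and −0.47. With the replicate block 3 subunits fell, as without it, and 497 of all genes fell and 2929 rose. The same-numbered mice of both groups had correlations of their deviations of 0.19, −0.10, −0.32, −0.03 and 0.04, and 1 of 10 mice matched their own number best. These values show no pairing by number but cannot exclude one, and the mice were treated as unpaired. Depth is unknown, and no limit on low values could be set from it.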
